A study of Sus scrofa with 150 samples.

Results

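Of 150 pig livers hybridised to the Affymetrix Porcine Genome Array, 10 gave a log2 value above 10 on the probe set Ssc.16377.2.A1_at, which the platform annotation assigns to GSTA1, and 140 gave a value below 10. The livers were selected on this measured value alone. The 10 livers above 10 make up 6.67% of the animals, with an exact binomial 95% interval of 3.24% to 11.9% that covers counting error only. All pigs came from 1 commercial cross, written Pix(DLxDE) in the labels, and none is described as treated. The liver was taken at slaughter and each pig had 1 array of total RNA. Both groups thus share cross and tissue in the labels, and that probe set alone was used to divide them. The labels give each pig's fat area on the longissimus muscle and its drip loss, and they give no sex, litter, slaughter day or array batch. The only other label is a number in the title, whose meaning is not stated. The 10 livers above 10 are lettered A to J here in the order of that number.

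GSTA1 encodes an alpha-class glutathione transferase. These enzymes join the tripeptide glutathione to reactive, electrophilic molecules, which makes them more soluble and easier to export, and the alpha class also reduces lipid peroxides. Alpha-class transferases are among the abundant soluble proteins of mammalian liver cells, and their genes lie in a cluster of similar copies, so that neighbouring copies can share long stretches of sequence.

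The values on this probe set fell into separate levels with nothing between them. The 10 livers above 10 had log2 13.46 (A), 14.00 (B), 13.34 (C), 13.46 (D), 13.09 (E), 13.78 (F), 13.31 (G), 13.70 (H), 13.38 (I) and 13.56 (J). The 140 livers below 10 had a lowest value of 4.09, a median of 4.65 and a highest value of 6.40. The liver just inside the threshold was at 13.09 and the liver just outside it at 6.40, a gap of 6.69, and any threshold in that gap chooses the same animals. Means were 13.51 ± 0.26 in the livers above 10 (SD, n = 10) and 4.67 ± 0.31 in the livers below 10 (SD, n = 140). The difference of 8.84 corresponds to a ratio of 459 on the deposited scale. The livers were chosen by these values, which are a description without a test. The lowest value in the deposited table is 4.09, and 2 of the livers below 10 sat at it, so the ratio compares a high level with one at the bottom of the scale.

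**Figure D1:**
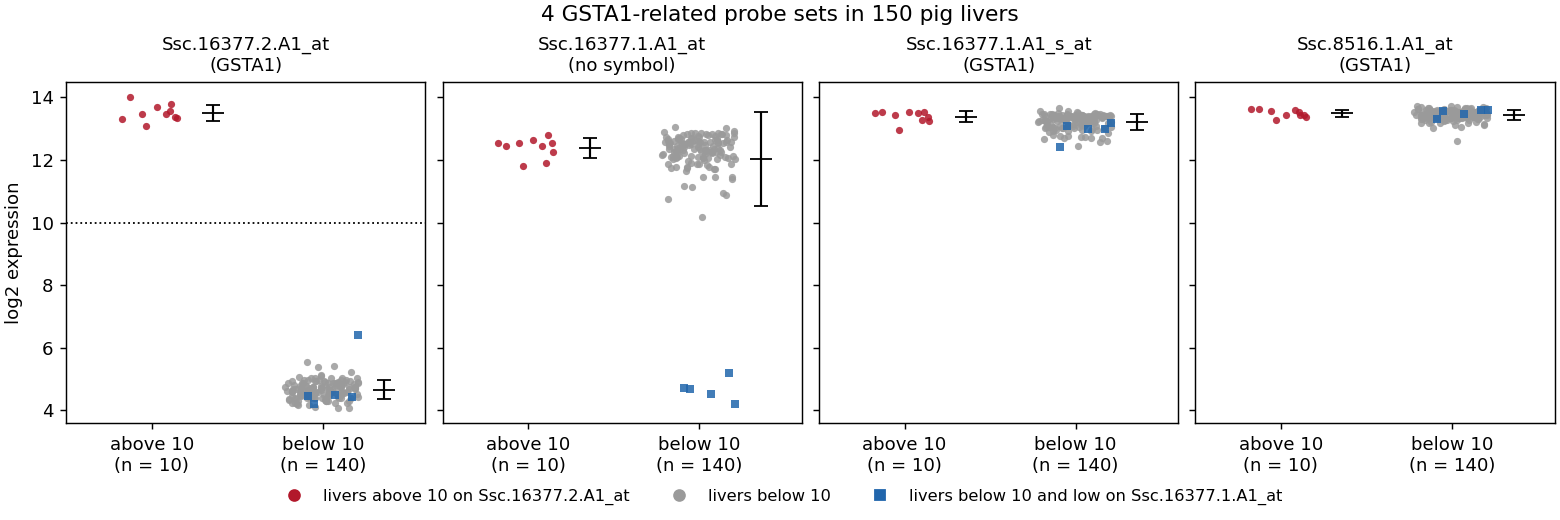
The log2 value of each liver on 4 probe sets, with the 10 livers above 10 on the left of each panel and the 140 livers below 10 on the right; bars give the mean and SD, and the dotted line marks the threshold of 10. The groups are separate on Ssc.16377.2.A1_at by its choice, and on the other 3 probe sets the livers above 10 lie among the livers below 10.

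The size of this gap was compared with every other probe set on the array. Ssc.16377.2.A1_at was taken as the GSTA1 probe set with the widest break, so its place here is a description without a test. Only 9 probe sets, Ssc.16377.2.A1_at included, had a break of at least 2 log2 units with at least 3 livers on each side, while the median probe set had a largest gap of 0.08. The second largest break, 4.97, belonged to Ssc.16377.1.A1_at, a probe set with no gene symbol in the platform annotation whose identifier has the same stem as the GSTA1 probe set. On it the pattern was turned round, with 5 livers low (4.20 to 5.20) and all others high (10.17 to 13.05). None of the 5 low livers was among the 10 livers above 10. With 5 of 150 livers low, the 10 could hold none of them without any relation between the probe sets. Of the other probe sets with a break, Ssc.27304.1.S1_at split the 10 livers into 5 on its upper level and 5 on its lower level, against 77 and 73 livers over the whole series. Ssc.16426.1.S1_at and Ssc.31029.1.A1_at also split the 10 livers 5 and 5, with 77 and 73 livers of the series on the upper level. The Y-linked EIF1AY was above log2 5 in 77 livers, and whether the same livers make up these levels was not tested. RBP2, which encodes a cellular retinol-binding protein, had 3 livers on its upper level and none of them was a liver above 10.

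The 5 livers low on Ssc.16377.1.A1_at are lettered K to O in the order of title number. Their values on it were 4.20, 4.71, 5.20, 4.53 and 4.70, and the same livers had 6.40, 4.45, 4.43, 4.48 and 4.22 on Ssc.16377.2.A1_at. Liver K was thus both the lowest of all on Ssc.16377.1.A1_at and the one just outside the threshold on Ssc.16377.2.A1_at. The 150 livers showed 3 of the 4 possible combinations: high on both probe sets in 10, low on both in 5, and high on Ssc.16377.1.A1_at alone in the rest. The absent combination would need a liver that is in both small groups, and its absence was not tested. The 10 livers above 10 averaged 12.39 ± 0.32 on Ssc.16377.1.A1_at, and the other high livers averaged 12.30 ± 0.48 (SD), a difference of 0.10 within the spread of either group.

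**Figure D2:**
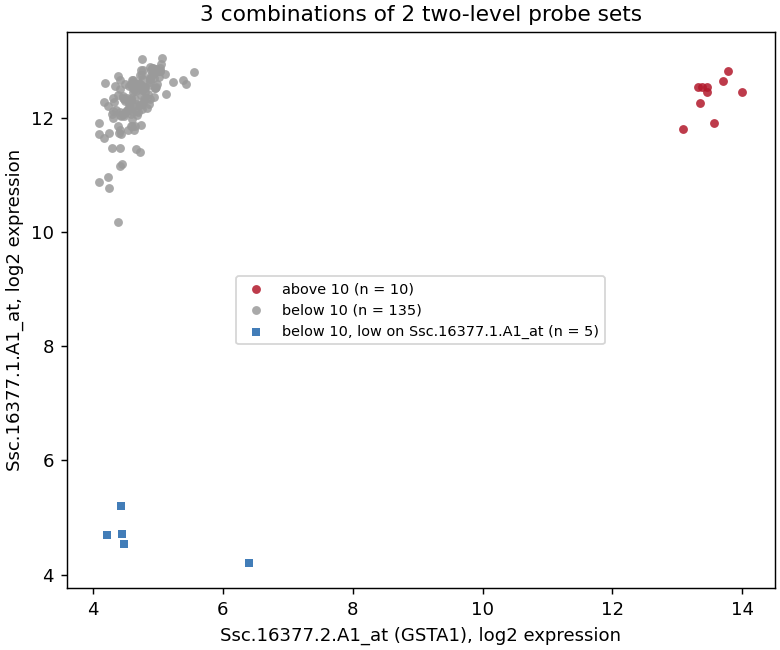
Each point is 1 liver, with its log2 value on Ssc.16377.2.A1_at on the x axis and on Ssc.16377.1.A1_at on the y axis. The 10 livers above 10 sit at upper right, 5 livers at lower left and the rest at upper left. No liver was high on the first and low on the second, an absence that was not tested in groups this small.

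The other probe sets annotated to GSTA1 were high in every liver. Ssc.16377.1.A1_s_at, whose probes match 2 transcript accessions according to the platform annotation, had a lowest value of 12.95, a median of 13.46 and a highest value of 13.53 in the livers above 10, and 12.40, 13.28 and 13.66 in the livers below 10. Ssc.8516.1.A1_at had 13.27, 13.49 and 13.62 in the livers above 10, and 12.60, 13.47 and 13.72 in the livers below 10. The groups overlapped on both, with mean differences of 0.16 and 0.04. Both probe sets already averaged 13.22 and 13.45 in the livers below 10. The platform annotation assigns Ssc.8516.1.A1_at and Ssc.16377.2.A1_at to the same transcript. Even so, the livers below 10 averaged 13.45 on Ssc.8516.1.A1_at and 4.67 on Ssc.16377.2.A1_at. Whether Ssc.16377.1.A1_s_at and Ssc.8516.1.A1_at could read higher in a liver was not tested. Nor was it tested whether the difference of 8.84 on Ssc.16377.2.A1_at was particular to 1 probe set. The 5 livers low on Ssc.16377.1.A1_at were also at 12.40 to 13.18 on Ssc.16377.1.A1_s_at and at 13.32 to 13.61 on Ssc.8516.1.A1_at. The lowest Ssc.16377.1.A1_s_at value of the whole series, 12.40, was that of liver L. Because different transcripts or copies of a gene family can be read by different probe sets, and a probe set with a mismatch to an animal's sequence reads low whatever the level, the values say what each probe set reported and not how much GSTA1 protein or total GSTA1 RNA a liver held.

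Within the 10 livers above 10, the values of Ssc.16377.2.A1_at are set beside those of these 3 probe sets as a description, without a test, since the same values chose the livers. Pearson's r was 0.707 and Spearman's rho 0.725 for Ssc.16377.1.A1_s_at over the 10 livers, and r was 0.462 when the 2 livers farthest from the median were left out. For Ssc.16377.1.A1_at r was 0.498 and rho 0.417, with r at 0.322 without 2 livers. For Ssc.8516.1.A1_at r was 0.484 and rho 0.385, with r at -0.197 without 2 livers. All 4 probe sets of a liver share its array.

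The livers above 10 were not spread evenly over the title numbers. A run of 17 livers in title order held 7 of the 10 above 10 (A to G) and 10 of the 140 below 10. It was drawn to begin at liver A and end at liver G, so it holds these 7 by choice. The title numbers in the 200s held 6 of the 10 (B to G) and 17 of the 140. The mean title number was 383 in the livers above 10 and 408 in the livers below 10 (permutation p = 0.80, adjusted p = 0.841 over 3 measures), a test of the average that does not see such a run. Of the 5 livers low on Ssc.16377.1.A1_at, 4 had title numbers in the 100s, as did 16 of all 150 livers, a count given without a test. Whether neighbouring titles stand for litters, days or arrays is not given in the labels.

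Neither fat area nor drip loss differed past the threshold of the test. Fat area was 12.4 to 19.1 cm2 in the livers above 10 (median 15.3) and 8.1 to 26.7 cm2 in the livers below 10 (median 14.6), and the mean was 15.0 ± 2.38 cm2 in the livers above 10 and 15.3 ± 3.31 cm2 in the livers below 10 (SD). The difference of -0.217 cm2 had a 95% interval of -1.79 to 1.35 cm2 (permutation p = 0.841, adjusted p = 0.841). Drip loss, the weight that a muscle sample loses as fluid, was 3.67% to 8.57% in the livers above 10 and 1.45% to 10.82% in the livers below 10. Its mean was 6.01 ± 1.47% in the livers above 10 and 5.50 ± 2.16% in the livers below 10 (SD), a difference of 0.51 with an interval of -0.471 to 1.49 (permutation p = 0.465, adjusted p = 0.841). These intervals still allow differences of either sign.

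Array measures overlapped between the groups, and some of their means differed. The median log2 value of an array was 5.90 to 6.07 in the livers above 10 and 5.79 to 6.09 in the livers below 10, with means of 5.99 ± 0.06 in the livers above 10 and 5.94 ± 0.07 in the livers below 10 (SD). The 3' minus 5' difference of the GAPDH control averaged 1.04 ± 0.36 in the livers above 10 and 0.91 ± 0.25 in the livers below 10, and that of the actin control averaged 2.84 ± 0.36 in the livers above 10 and 2.86 ± 0.46 in the livers below 10. The median correlation between 2 livers above 10 was 0.97, and between a liver above 10 and a liver below 10 it was 0.968. In all, 13 arrays stood apart by a low median correlation with the others, 2 of the 10 livers above 10 (C and G) and 11 of the 140 below 10. The Y-linked EIF1AY was above log2 5 in 5 of the 10 livers above 10 and in 72 of the 140 livers below 10. Of 9 hepatocyte markers measured, all were abundant, with a summed level of 16.51 to 16.71 in the livers above 10 and 16.43 to 16.74 in the livers below 10. The number of arrays, 10 and 140, limits the precision of these values. In whole liver, fewer cells of a type and less RNA per cell cannot be told apart.

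Outside GSTA1, few probe sets set the livers above 10 apart. The limma fit with Benjamini-Hochberg adjustment over 23998 probe sets called 3 higher, 0.0125% of those tested, and 0 lower in the livers above 10, while 2451 (10.2%) had an unadjusted p under 0.05 on the higher side and 1059 (4.41%) on the lower side. In no probe set other than the one that chose the livers were the groups free of overlap. All 10 livers lay above the median of the livers below 10 in 89 probe sets (0.371%) and below it in 37 (0.154%). Without the 13 arrays that stood apart, 0 probe sets were called by limma and 1634 (6.81%) had an unadjusted p under 0.05.

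These counts moved with single livers, with the array median and with the title numbers. Leaving out each liver above 10 in turn gave 1 call without G, 5 without J, 12 without A, 30 without I and 3 or 4 without each of the others. Of the 3 probe sets called over all livers, 1 was still called without F or without G. Without A, B or H in turn 2 of them were still called, and without each of the others all 3 were. With the array median in the model limma called 4, and 4.65% of probe sets had an unadjusted p under 0.05, against 3510 (14.6%) without it. With the actin and GAPDH differences in the model limma called 3 and 1990 had an unadjusted p under 0.05. The part of these array measures in the results was not tested further. Without the 23 livers with title numbers in the 200s, which leaves 4 livers above 10, limma called 0 probe sets and 617 (2.57%) had an unadjusted p under 0.05. Among those 23 livers alone, 6 above 10 and 17 below 10, limma called 2074 (8.64%) and 7031 (29.3%) had an unadjusted p under 0.05. Without the 4 of these arrays that stood apart it called 5 (0.0208%), with 3994 (16.6%) at an unadjusted p under 0.05. The part of the title numbers and of those 4 arrays in the calls was not tested beyond these values.

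SCGN was the only named gene called. It encodes secretagogin, a calcium-binding protein of neuroendocrine cells and pancreatic islets. SCGN lies on chromosome 7, as GSTA1 does, with 723 of the 1978 genes listed on that chromosome between them in the pig gene table. On Ssc.25537.1.S1_at the livers above 10 had log2 7.57 (A), 7.68 (B), 7.83 (C), 7.71 (D), 7.40 (E), 8.21 (F), 7.92 (G), 7.86 (H), 7.53 (I) and 7.49 (J). The livers below 10 had a lowest value of 5.94, a median of 7.02 and a highest value of 8.03. All 10 livers above 10 were over that median, yet 20 of the 140 livers below 10 were over the lowest of them, so the groups overlapped. The means were 7.72 ± 0.24 in the livers above 10 and 6.99 ± 0.45 in the livers below 10 (SD). SCGN was 1.66-fold higher in the livers above 10, by 0.735 on the log2 scale (SE 0.142, limma adjusted p = 0.00839).

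The SCGN difference was positive both among the livers with title numbers in the 200s and without them, although its call did not hold in each. It was 0.939 among the livers in the 200s (limma adjusted p = 0.0141), 0.61 without them (adjusted p = 1.0, 4 livers above 10) and 0.814 with blocks of 100 title numbers in the model (adjusted p = 0.00243). The 6 livers above 10 in the 200s averaged 7.79 ± 0.27, against 6.85 ± 0.40 in the 17 livers below 10 there. The other 4 livers above 10 averaged 7.61 ± 0.17, against 7.0 ± 0.45 in the other livers below 10 (SD). The call was also lost without liver F (difference 0.681, adjusted p = 0.0604), without liver G (0.713, adjusted p = 0.052), after quantile normalization (0.695, adjusted p = 0.0544), with each array centred on its median (0.688, adjusted p = 0.0594) and without the 13 arrays that stood apart (0.69, adjusted p = 0.222). The adjusted p ran from 0.00243 to 1.0 over the alternatives tried.

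At the other end of the scale were the 5 livers low on Ssc.16377.1.A1_at. Their SCGN values were 6.01, 6.0, 5.98, 6.19 and 6.08, among the 9 lowest of the 150 livers, and the livers that were high on Ssc.16377.1.A1_at alone averaged 7.02 ± 0.42. SCGN was therefore highest on average in the livers high on both probe sets and lowest in those low on both. This order was noticed after the values were seen and is given without a test; 20 of the 23998 probe sets (0.0833%), Ssc.16377.1.A1_at included, placed these 5 livers as low in rank. With the 5 livers left out, the difference between the livers above 10 and those below 10 was 0.701 (limma adjusted p = 0.00545).

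**Figure D3:**
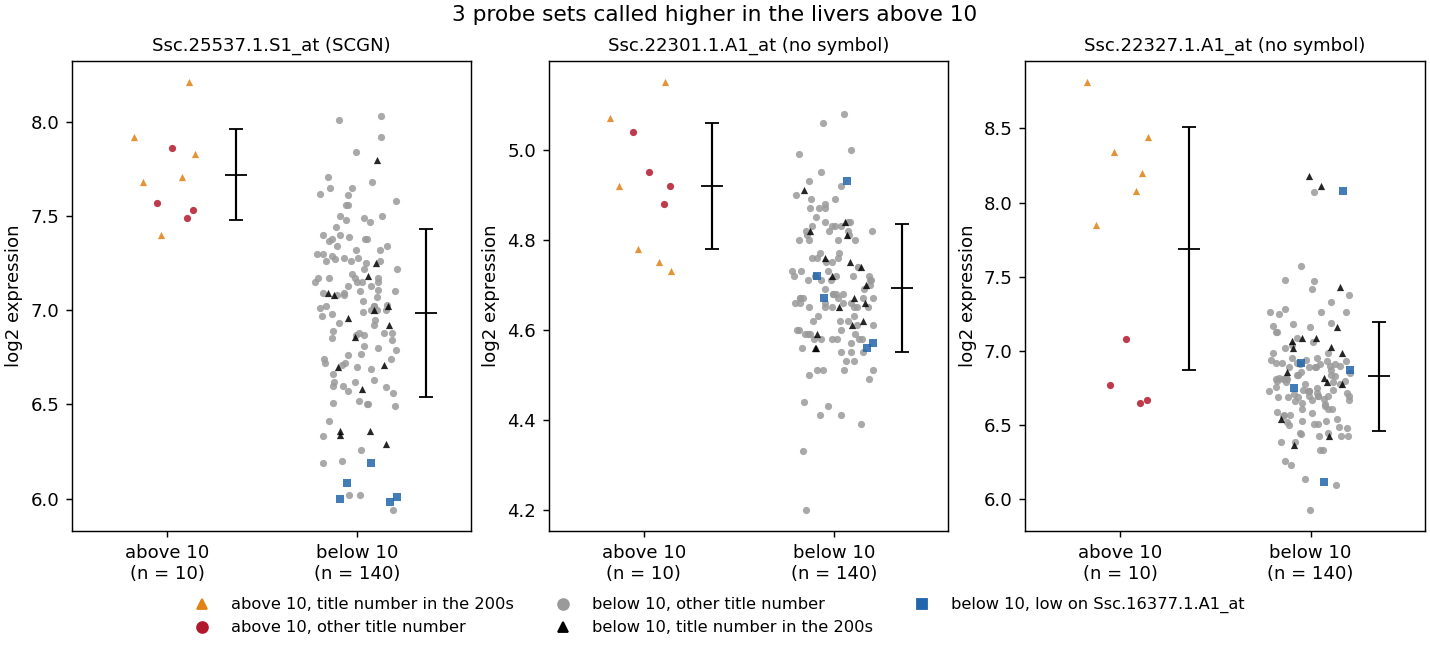
The log2 value of each liver on the 3 probe sets called higher, livers above 10 on the left of each panel and livers below 10 on the right, with mean and SD. On SCGN all 10 livers above 10 lie over the median of the livers below 10 and the 5 squares lie at the bottom; on Ssc.22327.1.A1_at the 6 livers B to G, with title numbers in the 200s (orange triangles), are at 7.85 to 8.81 and the other 4 at 6.65 to 7.08.

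The other called probe sets have no gene symbol in the annotation. Ssc.22327.1.A1_at had 6.77 (A), 7.85 (B), 8.44 (C), 8.08 (D), 8.34 (E), 8.20 (F), 8.81 (G), 7.08 (H), 6.67 (I) and 6.65 (J) in the livers above 10, and 5.93 to 8.18 with a median of 6.80 in the livers below 10. Among the 10 it was high in B to G, the 6 with title numbers in the 200s (8.29 ± 0.33), and the 17 livers below 10 in the 200s averaged 7.05 ± 0.49 (SD). The overall difference was 0.859 (SE 0.133, limma adjusted p = 2.98e-05). It was 1.24 within the 200s (adjusted p = 0.0112) and -0.00766 without them (adjusted p = 1.0), the other 4 livers above 10 averaging 6.79 ± 0.20 and the other livers below 10 averaging 6.80 ± 0.34. The call was also lost within the 200s without the arrays that stood apart (1.06, adjusted p = 0.0984), without all 13 such arrays (0.638, adjusted p = 0.132) and with normal scores (adjusted p = 0.267).

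Ssc.22301.1.A1_at lay close to the bottom of the scale. The livers above 10 had 4.73 to 5.15 with a median of 4.92, and the livers below 10 had 4.20 to 5.08 with a median of 4.68. All 10 were over that median, with 49 of the 140 livers below 10 over the lowest of the 10, and the difference was 0.227 (SE 0.047, limma adjusted p = 0.0303). It lost its call without livers A, B, F, G or H in turn (adjusted p of 0.0501 to 0.185) and without the 13 arrays that stood apart (0.235, adjusted p = 0.132). The call was lost too with blocks of 100 title numbers in the model (0.219, adjusted p = 0.113), with a spline of the title number (0.22, adjusted p = 0.0612), within the 200s (0.196, adjusted p = 0.0603) and without them (0.257, adjusted p = 1.0). Quantile normalization (adjusted p = 0.111), median centring (adjusted p = 0.189) and normal scores (adjusted p = 0.134) ended it as well.

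The named genes of next smallest p did not pass the threshold, with limma adjusted p of 0.151 to 0.166. On the higher side they were NAP1L1, a histone chaperone, by 0.486, GPM6B, a membrane proteolipid, by 0.358, CDH11, a cadherin of mesenchymal cells, by 0.367, and RPL22L1, a ribosomal protein paralog, by 0.411. CDH11 was 5.0 to 5.86 in the livers above 10 and 4.33 to 5.84 in the livers below 10, with all 10 over the median of 4.97 in the livers below 10. On the lower side were POLR2E, a subunit shared by the RNA polymerases, by -0.410, ACOT6, an acyl-CoA thioesterase family member, by -0.328, CDK5RAP1, an enzyme that modifies mitochondrial tRNA, by -0.296, and MRPS7, a mitochondrial ribosomal protein, by -0.276. Among the livers in the 200s alone, NAP1L1, GPM6B, CDH11, RPL22L1 and CDK5RAP1 passed, with limma adjusted p of 0.0281 to 0.0414. None of these passed there without the arrays that stood apart (limma adjusted p of 0.184 to 0.244). With the array median in the model over all livers, their limma adjusted p was 0.896 to 0.944. Without the livers in the 200s their differences were 0.229, 0.134, 0.41, 0.0615 and -0.0716 in the same order, and that of MRPS7 was -0.0294. Without liver I, NAP1L1, RPL22L1, POLR2E, CDK5RAP1 and MRPS7 passed (adjusted p = 0.037 each), and without liver A so did GPM6B (adjusted p = 0.036). With array weights NAP1L1, GPM6B, RPL22L1, CDK5RAP1 and MRPS7 passed (adjusted p of 0.0148 to 0.0361). For POLR2E liver G was at 6.76 and the next lowest of the 10 at 9.02. Its difference was -0.146 without liver G and 0.00697 without the livers in the 200s, and it was called without liver A (-0.462, limma adjusted p = 0.0465). That of ACOT6 was -0.213 without liver G, and it was called without liver J (-0.401, adjusted p = 0.032). GGT1, the gamma-glutamyltransferase that starts the breakdown of extracellular glutathione, was 4.18 to 4.91 on Ssc.7534.1.A1_at in the livers above 10 and 4.18 to 5.54 in the livers below 10, all 10 under the median of 4.935 (difference -0.303, SE 0.076, adjusted p = 0.151). With blocks of 100 title numbers in the model it was called lower (-0.381, limma adjusted p = 0.0221), and without the livers in the 200s the difference was -0.509 (adjusted p = 0.386). Its other probe set, Ssc.116.2.S1_a_at, with higher values, was at 6.73 ± 0.16 in the livers above 10 and 6.74 ± 0.23 in the livers below 10, a difference of -0.014 (adjusted p = 0.957).

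No other glutathione transferase passed the test. Of 8 such genes measured, on 10 probe sets, limma called 0, against 0.0125% called higher over all probe sets, and their adjusted p ran from 0.432 to 0.99. MGST1, a membrane-bound transferase of the endoplasmic reticulum and mitochondria, was 12.52 to 13.07 in the livers above 10 and 11.86 to 13.12 in the livers below 10 (difference 0.102, interval -0.0378 to 0.241). GSTA4, the alpha-class enzyme that prefers the lipid aldehyde hydroxynonenal, lies 4 genes away from GSTA1. On Ssc.5008.1.A1_at it was 7.75 to 9.47 in the livers above 10 and 6.24 to 10.26 in the livers below 10 (difference 0.226, interval -0.257 to 0.71). On Ssc.27884.1.A1_at it was 5.13 to 5.58 in the livers above 10 and 4.94 to 5.71 in the livers below 10 (difference -0.003, interval -0.105 to 0.0994). GSTM3, of the mu class, spread widely in both groups, from 4.58 to 8.06 in the livers above 10 and from 4.60 to 8.53 in the livers below 10 (difference 0.349, interval -0.293 to 0.992; 0.176 without liver B and 0.562 without liver G). The differences of GSTK1 (kappa class, -0.124), GSTO1 (omega class, -0.030), GSTZ1 (zeta class, an enzyme of tyrosine breakdown, -0.144 and -0.033), MGST3 (-0.151) and PTGES (a prostaglandin E synthase of the same membrane family, -0.090) all had intervals that included 0. Without the livers in the 200s, the differences of GSTK1, GSTO1, both GSTZ1 probe sets, MGST3, PTGES and MGST1 had the opposite sign, between -0.045 and 0.121.

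The genes beside GSTA1 on chromosome 7 were looked at for a difference shared along the chromosome. Of the 20 genes on each side in the pig gene table, 12 had probe sets, 16 in all. Limma called 0 of the 16 (smallest adjusted p = 0.295), beside 3 of all 23998 probe sets tested. Of the 16, 9 had a positive difference and their median was 0.02. Over all probe sets tested, 13028 of 23998 were positive and the median was 0.01, so the 16 lay near the background. TMEM14A, a small membrane protein gene next to GSTA1, was 6.74 to 8.28 in the livers above 10 and 6.27 to 8.33 in the livers below 10 (difference 0.149, SE 0.137, adjusted p = 0.649). IREB2, which encodes an iron-sensing RNA-binding protein and lies 19 genes away, was the only one with an unadjusted p under 0.05. It was 6.25 to 6.84 in the livers above 10 and 5.02 to 7.32 in the livers below 10, with all 10 over the median of 6.20 (difference 0.294, SE 0.133, p = 0.0291, limma adjusted p = 0.295). Over chromosome 7 as a whole, 16.8% of 702 probe sets had an unadjusted p under 0.05, against 15.9% of 9960 over all probe sets with a chromosome.

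**Figure D4:**
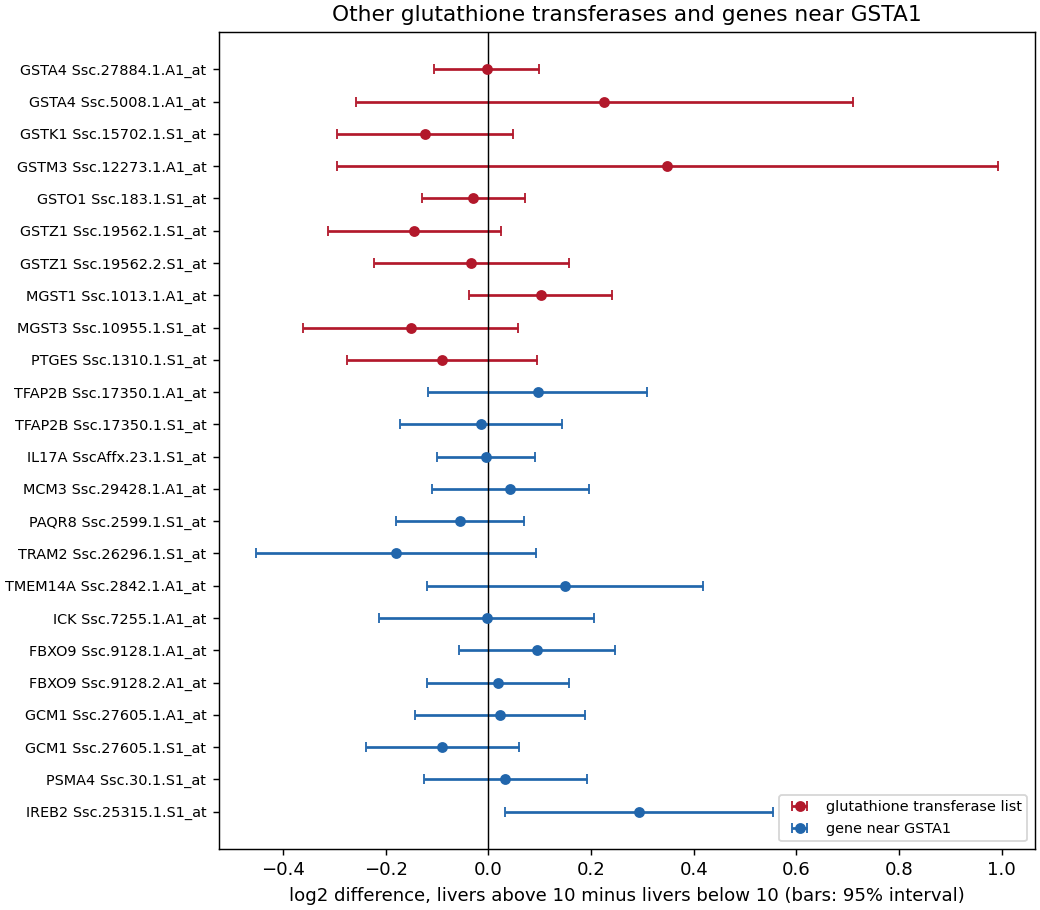
The log2 difference, livers above 10 minus livers below 10, with its 95% interval, for the probe sets of 8 other glutathione transferase genes (red) and of the measured genes nearest to GSTA1 in chromosome order (blue; GSTA4 belongs to both and is drawn in red). Only the interval of IREB2 leaves out 0, and its adjusted p was 0.295.

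Enzymes that make, use and recycle glutathione gave no call. Of 17 measured, 4 had a positive difference, limma called 0, and their median difference was -0.06, against -0.01 over all 6764 named genes, of which 3260 were positive and 1 was called. GCLC, the catalytic subunit of the rate-limiting step of glutathione synthesis, was 8.4 ± 0.69 in the livers above 10 and 8.05 ± 0.54 in the livers below 10 (difference 0.346, limma adjusted p = 0.347). GLRX, a glutaredoxin that removes glutathione from proteins, was 9.88 ± 0.51 in the livers above 10 and 10.26 ± 0.36 in the livers below 10 (difference -0.378, adjusted p = 0.214). GPX4, the peroxidase of membrane lipids, was 10.54 ± 0.33 in the livers above 10 and 10.74 ± 0.21 in the livers below 10 (difference -0.196, adjusted p = 0.245). GLO1, which clears methylglyoxal through glutathione, had a difference of 0.343 (adjusted p = 0.273). These 4 differences changed with the livers whose title numbers were in the 200s. Among them GLRX differed by -0.658 (adjusted p = 0.0346) and GLO1 by 0.818 (adjusted p = 0.0327), and without them the differences of GLRX, GCLC, GPX4 and GLO1 were 0.034, -0.167, 0.007 and -0.160, each with an adjusted p of 1.0.

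Targets of NRF2, the transcription factor that induces detoxifying and antioxidant genes, were counted because GSTA1 is one of its known targets in other mammals. Of 18 measured, 4 had a positive difference and limma called 0, against 3260 positive and 1 called of the 6764 named genes. Their median difference was -0.13, against -0.01 over the named genes. TXN, thioredoxin, was under the median of the livers below 10 in all 10 livers above 10, at 10.89 to 11.24, against 10.69 to 11.67 in the livers below 10 (difference -0.149, adjusted p = 0.297). ME1, the malic enzyme that supplies NADPH, was 5.07 to 6.0 in the livers above 10 and 4.61 to 7.72 in the livers below 10 (difference -0.374, adjusted p = 0.326). Without the livers in the 200s, 6 of the 18 were positive and the median was -0.04, against 3919 of 6764 and 0.03 over the named genes. Among 22 cytochromes, flavin oxygenases and their regulators, 14 were positive, limma called 0, and the median was 0.04, beside the same 3260 positive and 1 called of 6764. CYP2B22, a drug-inducible cytochrome, spread from 5.71 to 9.71 in the livers above 10 and from 4.09 to 11.60 in the livers below 10 (difference -0.868, adjusted p = 0.344).

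The list named endoplasmic reticulum stress, which holds chaperones, folding enzymes and regulators of that compartment, gave no call. Of 16 genes, 13 were positive, against 3260 of all 6764 named genes, with a median of 0.21, or 0.19 without the 13 arrays that stood apart. Without the livers in the 200s it was 0.18, with 14 of 16 positive, and among those livers it was 0.05. Over all 6764 named genes, 3919 were positive without the livers in the 200s (median 0.03) and 2887 among them (median -0.05). CANX, the lectin chaperone calnexin, was 9.91 to 11.58 in the livers above 10 and 8.84 to 11.24 in the livers below 10 (difference 0.464, SE 0.144, limma adjusted p = 0.209). HSPA5, the chaperone BiP, was 11.31 to 13.26 in the livers above 10 and 10.40 to 12.78 in the livers below 10 (difference 0.429, SE 0.166, adjusted p = 0.248). HSP90B1, the chaperone GRP94, had a difference of 0.619 (SE 0.233, adjusted p = 0.245), which was -0.037 without the livers in the 200s.

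Several lists changed sign with the title numbers. Over all named genes the median was -0.01 over all livers, -0.05 among the livers in the 200s and 0.03 without them, which leaves 4 livers above 10. Of 16 interferon response genes 10 were positive over all livers, with a median of 0.06, which was -0.49 among the livers in the 200s and 0.61 without them. The medians of 14 immediate early genes were -0.17, -0.30 and 0.09 in the same order, and those of 11 amino acid response genes -0.14, -0.20 and 0.03. Limma called no member of either list, nor any member of the 34 lists drawn in the plot of list medians, over all livers. Of the cell type markers, 5 of 5 red blood cell genes were positive (median 0.26), against 3260 of all 6764 named genes. Their summed level was 9.99 to 12.19 in the livers above 10 and 8.96 to 11.83 in the livers below 10. Other short marker lists leaned the other way, with 0 of 5 adipocyte markers (median -0.09) and 1 of 4 kidney and adrenal markers (median -0.09) positive. Of 11 stellate cell and fibroblast markers 5 were positive, and their median was -0.00493. Among them the contractile gene ACTA2, a marker of stellate cells and vessel walls, was 8.27 to 11.18 in the livers above 10 and 8.18 to 11.81 in the livers below 10 (difference -0.774, SE 0.257, adjusted p = 0.231).

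**Figure D5:**
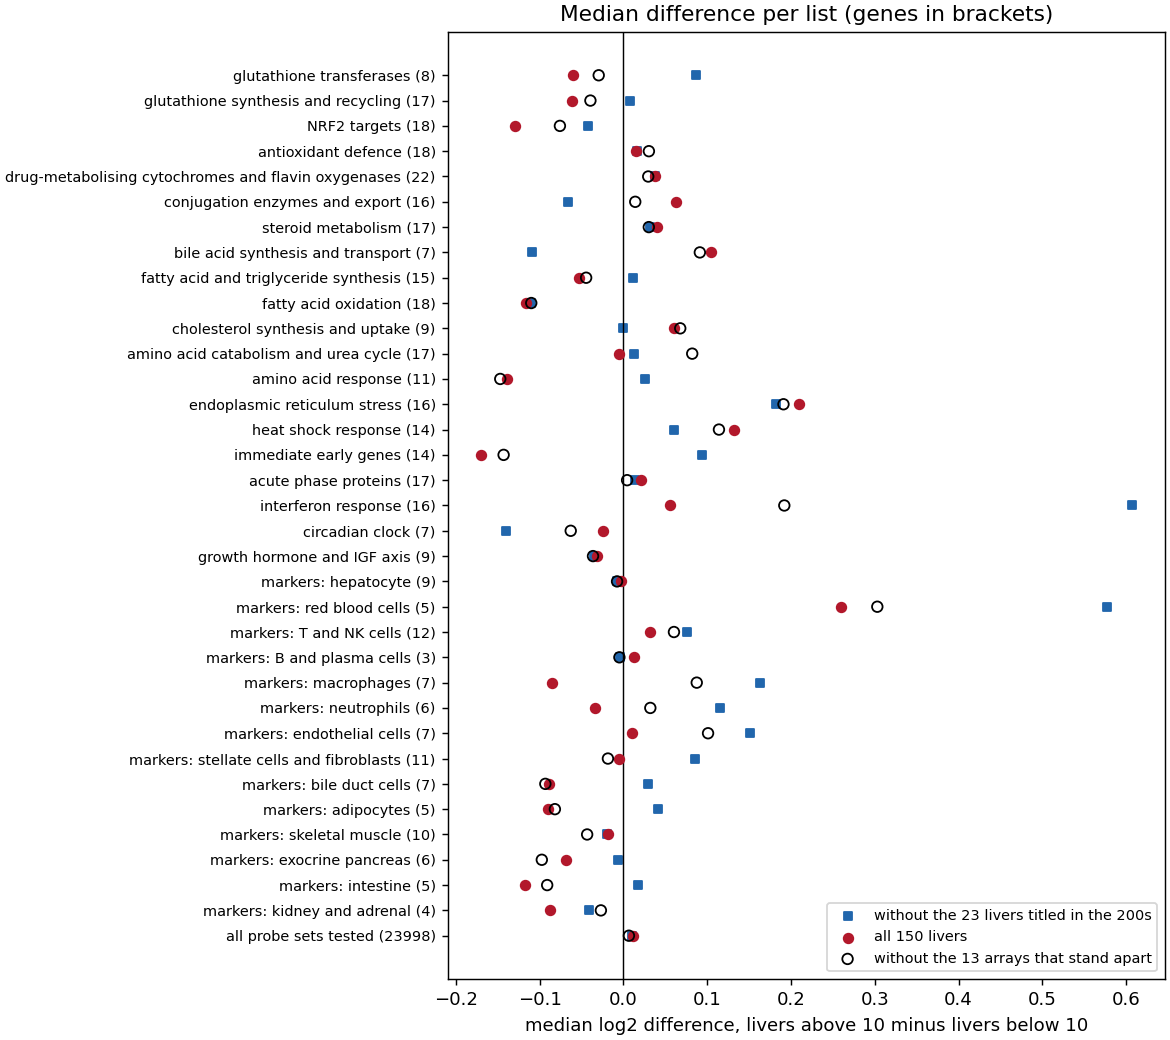
The median log2 difference, livers above 10 minus livers below 10, of each gene list, over all 150 livers (red), without the 13 arrays that stand apart (open) and without the 23 livers in the 200s (blue squares). Over all livers the medians run from -0.17 for immediate early genes to 0.26 for red blood cell markers, and interferon response genes are at 0.06 over all livers and at 0.61 without the livers in the 200s.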

How the data were processed

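Total RNA of 150 livers was labelled and hybridised to Affymetrix Porcine Genome Arrays, 1 array per pig. The deposited table holds the authors' log2 expression values for 24123 probe sets with 2 decimals. GCOS 1.1.1 was used per the submitters' processing notes, while how probes were summarised into probe sets, and whether arrays were background-corrected or normalised, is not given in the sources used here. Values were used as deposited. The 124 control probe sets and the probe set that chose the livers were left out, and 23998 were tested in limma 3.58.1 (R 4.3.3; lmFit and eBayes with trend, two-sided, Benjamini-Hochberg, called at adjusted p under 0.05) with all livers and no covariate. The label measures were tested by permutation with 100000 resamples (Python 3.11.15, scipy 1.17.1), and intervals are 95%. Probe sets annotated to GSTA1 were fitted and printed without p-values. The fit was tested on simulated data.

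Symbols came from the platform annotation, with 1 symbol for 10068 probe sets, several for 198 and none for 13732. Of these, 9960 matched the pig gene table, from which chromosome and gene order were taken. No coordinates are given. In gene lists a gene counts once, by its probe set of highest mean. Named were called probe sets, in each direction with under 5 called the 5 named genes of smallest p, every glutathione transferase probe set, called list members and called neighbours of GSTA1. Named outside this rule, after their values were seen, were IREB2, TMEM14A, the list members that did not pass, RBP2 and the other probe sets with a break. The members and lists were chosen with earlier results of these data known. An array stood apart when its median correlation with the others was over 3 median absolute deviations below the median array. Pigs are separate animals with 1 array each. Alternatives were other scalings, filters, moderation settings, array weights, covariates, thresholds and left-out livers.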

Additional observations from a re-analysis of the deposited data

Results flagged for a closer look

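Among 32 groups of 10 values examined, 3 held a value far from the others by Dixon's test at its 95% critical value; chance flags about 1 in 20 groups. POLR2E was at 6.76 in liver G, with the next lowest liver above 10 at 9.02, and ACOT6 was at 9.05 in the same liver, next to 9.85. That liver's array is 1 of the 13 that stood apart, with a median correlation of 0.937 with the others, and its 3' minus 5' difference was 3.55 for actin, the highest of the 10, as was its 1.70 for GAPDH. GSTA1 on Ssc.16377.1.A1_s_at was at 12.95 in liver E, the next lowest being 13.24; the same liver was the lowest of the 10 on Ssc.16377.2.A1_at (13.09), on Ssc.16377.1.A1_at (11.80) and on Ssc.8516.1.A1_at (13.27).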

How the results depend on the processing

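The count of 3 probe sets called moved to 1 after quantile normalization, median centring or normal scores, 5 with blocks of 100 title numbers, 6 with 5 principal components, 8 at adjusted p under 0.1, 88 with array weights and 0 without the 13 arrays that stood apart. Leaving out each liver above 10 in turn gave 1 to 30, with 1 without liver G, 12 without A, 5 without J and 30 without I. Chosen after seeing the data were the fits within the title numbers in the 200s (2074 called, 1508 higher and 566 lower), the same without arrays that stood apart (5), without the 200s (0) and without the 5 livers low on Ssc.16377.1.A1_at. The cause of these changes was not tested. The fat area difference turned to 0.70 cm2 between medians and ran from -0.668 to 0.0762 leaving out single livers; drip loss ran from 0.226 to 0.77. The title number difference turned to 8.45 without arrays that stood apart and otherwise ran from -106 to -4.33 leaving out single livers. Signs also turned for uncalled transferases: MGST1 (-0.0248) and PTGES (0.0435) with 5 principal components; GSTZ1 on Ssc.19562.2.S1_at with array weights (0.0169), 5 principal components (0.0206), without arrays that stood apart (0.0344) and leaving out single livers (-0.0737 to 0.00077); and GSTA4 on Ssc.27884.1.A1_at with the spline (0.00544), array median (0.0086), control ratios (0.00047), 5 principal components (0.0413), the 200s (0.0132) and single livers left out (-0.027 to 0.023; 0.000738, 0.00629, 0.00963 and 0.00185 among them). Without the 200s, Ssc.22327.1.A1_at (-0.00766), POLR2E (0.00697), MGST1 (-0.045), MGST3 (0.083), PTGES (0.117), GSTK1 (0.121), GSTO1 (0.0614) and GSTZ1 (0.0904 and 0.0394) turned. No paired analysis was possible because the livers are single animals with no shared replicate numbers. With 10 livers above 10, and 4 outside the 200s, small differences are not measured with precision.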
